A study of Mus musculus with 24 samples.

Results

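The genes described are 9 transcription regulators of late meiosis and spermatid development in the mouse: Mybl1, Tcfl5, Rfx2, Sox30, Crem, Fhl5, Tbpl1, Brwd1 and Taf7l. They were chosen by name and make up 9 of the 55364 genes in the round spermatid tables and of the 55401 in the CB tables. Each was listed in every one of the 12 RNA libraries of a series of 24. The germ cells came from enzyme-digested testes, and their genotypes were wild type (WT), heterozygous and homozygous for a Ddx4 knock-in allele that the series title describes as a combined tag. Round spermatid RNA was sequenced in 2 libraries of each of the 3 genotypes, and CB RNA in 3 heterozygous and 3 homozygous libraries. The labels do not spell out CB and give the cell type of those libraries only as germ cells. Wild-type CB RNA was not analysed here, so heterozygotes are the reference there. The sources used here give no strain or age and do not say that the libraries of a group came from separate animals. A p-value therefore reflects only how far libraries of a group scatter, and that scatter may be technical.

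Ddx4 encodes an RNA helicase that germ cells concentrate in their cytoplasmic granules. In the male germ line, transcription runs in waves: in pachytene spermatocytes MYBL1 and TCFL5 activate meiotic genes and the precursors of pachytene piRNAs, and RFX2 and SOX30 then open the program that carries cells through meiosis into round spermatids. In round spermatids CREM, a factor that binds cyclic AMP response elements, works with the LIM-domain coactivator FHL5. The TBP-like protein TBPL1, the TFIID subunit paralog TAF7L and the bromodomain protein BRWD1 act there on the general transcription machinery and on chromatin, before the nucleus is compacted and transcription stops.

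Promoter windows, the 250 bases before a start site in RefSeq, were read for 7 of the 9 genes. Windows of Mybl1 and Crem were not read here. The windows of Rfx2 and Tcfl5 and 1 of the 2 windows of Fhl5 are shown. They were picked because Rfx2 and Fhl5 varied in opposite directions across the libraries and the Tcfl5 and Rfx2 windows hold the most motif matches. Coordinates are those of GRCm38.p6. Each is written 5′ to 3′ on the strand of its gene, which is the minus strand in all 3, with motif matches on either strand in capitals. They are taken from chr17:56831009-56831258 (Rfx2), chr2:180642692-180642941 (Tcfl5) and chr4:25242853-25243102 (Fhl5), directly upstream of the annotated gene.
Rfx2: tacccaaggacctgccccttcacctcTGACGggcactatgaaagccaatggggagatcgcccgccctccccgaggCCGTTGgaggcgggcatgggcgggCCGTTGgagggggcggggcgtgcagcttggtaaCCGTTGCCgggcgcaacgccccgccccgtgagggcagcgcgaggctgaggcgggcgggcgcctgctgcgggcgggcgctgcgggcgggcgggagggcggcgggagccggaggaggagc
Tcfl5: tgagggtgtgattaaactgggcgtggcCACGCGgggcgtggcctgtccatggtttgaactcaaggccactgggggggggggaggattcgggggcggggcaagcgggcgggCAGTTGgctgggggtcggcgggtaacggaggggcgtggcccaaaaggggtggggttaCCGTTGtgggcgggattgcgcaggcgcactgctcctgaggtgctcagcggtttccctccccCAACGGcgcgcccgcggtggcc
Fhl5: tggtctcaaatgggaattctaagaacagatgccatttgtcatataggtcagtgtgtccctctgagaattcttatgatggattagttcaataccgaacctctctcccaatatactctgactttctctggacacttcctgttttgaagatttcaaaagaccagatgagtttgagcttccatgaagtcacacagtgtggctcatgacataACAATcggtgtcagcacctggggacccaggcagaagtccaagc
The Rfx2 window holds 3 matches to the MYB core CAACNG, 1 to the RFX core GTTGCC, which shares bases with a MYB match, and 1 to the cyclic AMP response element core TGACG. The Tcfl5 window holds 3 MYB core matches and 1 match to the TCFL5 core CACGCG. The Fhl5 window shown holds 1 match to the SOX core ACAAT. The other Fhl5 window, chr4:25242267-25242516, holds no match. Over all 32851 windows of the same length, 29.3% hold the MYB core, 10.4% the RFX core, 17.8% the TGACG core, 7.62% the TCFL5 core and 27.7% the SOX core. The full palindrome TGACGTCA, which 1.55% of all windows hold, was in none of the 8 windows read, which do not include Crem. Among the other members, Sox30 and Brwd1 each hold 1 TCFL5 core, Sox30 1 SOX core, and Taf7l 1 MYB and 1 SOX core, while the Tbpl1 window holds no match. These are letter matches, not measured binding sites.

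The genes lie on 9 different chromosomes. In GRCm38.p6 coordinates, the pachytene activators are at chr1:9667407-9700439 (Mybl1) and chr2:180621956-180642691 (Tcfl5). Rfx2 is at chr17:56775897-56831008 and Sox30 at chr11:45979069-46017992. Crem is at chr18:3266354-3337773 and its coactivator gene Fhl5 at chr4:25199907-25242852. Tbpl1 is at chr10:22703877-22732666, Brwd1 at chr16:95992089-96082703 and Taf7l on the X chromosome at chrX:134460116-134476505. All 9 are annotated as protein-coding.

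Sequencing depth, as total count, ranged from 15.3 to 24.9 M (round spermatids) and from 14.2 to 16.5 M (CB RNA), and the lowest count of a member in a library was 160. The 9 genes together took 0.225% to 0.250% of the counts in round spermatids and 0.151% to 0.169% in CB RNA. Wild-type round spermatid library 1 stood apart. Genes with an effective length under 1000 bases took 32.7% of its counts against 21.6% to 23.7% in the other 5, and its summed level of 8 elongating spermatid markers was 25090 CPM against 14630 to 15440. Among the CB libraries, heterozygous library 1 differed from the other 2 of its group by far more than they did from each other (chi-square over degrees of freedom 33.5 and 33.6 against 5.95). The labelled cell type was checked with 8 round spermatid markers, such as Acrv1 and Spaca1. They summed to 1618 to 2431 CPM in the round spermatid libraries and 254 to 332 CPM in CB RNA. The 14 pachytene markers, such as Sycp3, were all detected in every library, at 621 to 844 CPM in round spermatids and 596 to 927 CPM in CB RNA. In bulk RNA, fewer cells of a type and less RNA per cell cannot be told apart.

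Levels were first compared between the genes on the authors' TPM scale, which is adjusted for length. In round spermatids Tbpl1 was the highest, with a median of 601 TPM over 6 libraries, followed by Crem (450), Fhl5 (342), Tcfl5 (296), Rfx2 (231) and Sox30 (117). Taf7l (27.0), Brwd1 (19.3) and Mybl1 (8.69) were the lowest. The ranges of neighbours in this order overlapped between Tcfl5 and Rfx2, Rfx2 and Sox30, Taf7l and Brwd1, and Brwd1 and Mybl1, and in no other neighbouring pair. The top of the order was thus held by the postmeiotic factors Tbpl1, Crem and Fhl5, each with no overlap to the next, and the bottom by the pachytene activator Mybl1.

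In CB RNA the order was different. Rfx2 (median 337 TPM) and Tcfl5 (329) led, followed by Brwd1 (218), Tbpl1 (159), Crem (155), Sox30 (118), Mybl1 (92.8), Fhl5 (43.1) and Taf7l (21.8). Neighbours did not overlap between Tcfl5 and Brwd1, Mybl1 and Fhl5, and Fhl5 and Taf7l, and did in the other 5 pairs. Fhl5 was thus next to last here, while only Tbpl1 and Crem exceeded it in round spermatids.

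**Figure D1:**
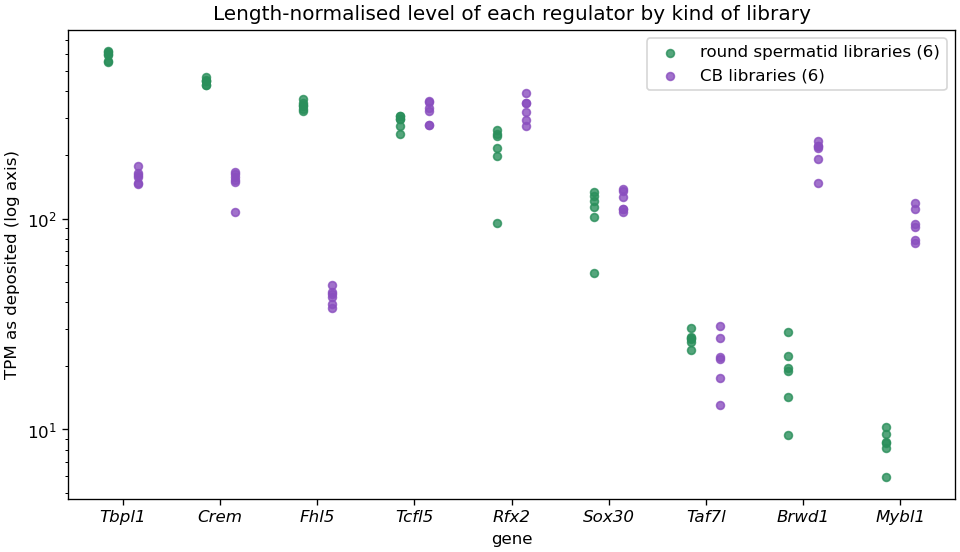
Deposited TPM of each regulator on a log axis, 1 point per library (6 round spermatid and 6 CB libraries), with genes ordered by their median in round spermatids. Tbpl1, Crem and Fhl5 lead in round spermatids, while Brwd1 and Mybl1 lie far higher in CB RNA than in round spermatids.

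The genotype comparisons use CPM, in which each count is divided by its library's TMM-adjusted size, a scale for comparing libraries and not genes. The pachytene activators come first. Mybl1 stood at 24.7 and 33.4 CPM in wild-type round spermatids, 27.7 and 23.4 in heterozygotes and 23.2 and 26.0 in homozygotes. The 3 genotypes overlapped, and the homozygous difference from wild type on the log2 scale was -0.24 (SE 0.20, adjusted p = 0.497). Tcfl5, which encodes a testis bHLH factor, stood at 502.1 and 484 CPM in wild type, 455 and 432 in heterozygotes and 482 and 461 in homozygotes. Both wild-type libraries lay above all 4 knock-in libraries, by a small margin over the homozygous ones, and the homozygous log2 difference was -0.07 (SE 0.10, adjusted p = 0.714). With all libraries, neither gene was called in any of the 3 round spermatid comparisons.

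Rfx2 and Sox30, the factors of the transition to round spermatids, had wild-type libraries further apart than the libraries of either other genotype. Rfx2 stood at 299 and 634 CPM in wild type, 641 and 610 in heterozygotes and 494 and 528 in homozygotes. Sox30 stood at 156 and 291 CPM in wild type, 295 and 272 in heterozygotes and 231 and 252 in homozygotes. For both genes wild-type library 1, the library with the large share of short genes, was the lowest of the 6, and wild-type library 2 lay with the heterozygotes. Homozygotes lay below both heterozygous libraries. The fitted homozygous difference from wild type was 0.13 (SE 0.32, adjusted p = 0.832) for Rfx2 and 0.11 (SE 0.28, adjusted p = 0.839) for Sox30. Without wild-type library 1 these turned to -0.31 (adjusted p = 0.000206) and -0.27 (adjusted p = 0.00347), and without wild-type library 2 they were 0.78 and 0.64. The remaining wild-type library is then assumed to vary like the other groups, so the sign of the difference from wild type rested on which wild-type library was kept. Against heterozygotes the difference was -0.29 for Rfx2 (adjusted p = 0.724) and -0.23 for Sox30 (adjusted p = 0.746) with all 6 libraries sharing an estimate of spread. With only the 4 heterozygous and homozygous libraries in the fit, both were called lower in homozygotes, at log2 values of -0.29 (adjusted p = 0.000104) and -0.24 (adjusted p = 0.00316).

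Crem lay in a narrow range, and its coactivator gene Fhl5 varied more. Crem stood at 335 and 305 CPM in wild type, 306 and 309 in heterozygotes and 289 and 284 in homozygotes. Both homozygous libraries were the lowest of the 6, and the log2 difference from wild type was -0.16 (SE 0.10, adjusted p = 0.403). Fhl5 stood at 303 and 242 CPM in wild type, 215 and 224 in heterozygotes and 253 and 232 in homozygotes. Its highest value was in wild-type library 1, homozygotes overlapped wild type, and heterozygotes lay below both other genotypes. The log2 difference between homozygotes and wild type was -0.17 for Fhl5 (SE 0.14, adjusted p = 0.505), and it was -0.003 without wild-type library 1 (adjusted p = 0.98).

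Tbpl1, the most abundant of the set in round spermatids, differed most between homozygotes and wild type. It stood at 602 and 475 CPM in wild type, 452 and 453 in heterozygotes and 422 and 418 in homozygotes. The genotypes did not overlap, and their means were 539 ± 89.2, 453 ± 1.20 and 420.1 ± 3.04 CPM (SD, n = 2 libraries each). The homozygous log2 difference from wild type was -0.36 (SE 0.13), with an unadjusted p of 0.0351 that did not hold after adjustment (adjusted p = 0.192). Without wild-type library 1 it was smaller, -0.18, and was called (adjusted p = 0.0102). The summed level of the 8 round spermatid markers moved with it, at 2431 and 2045 CPM in wild type, 1949 and 2003 in heterozygotes and 1674 and 1618 in homozygotes. The part of these cells in the Tbpl1 result was not tested. The X-linked Taf7l stood at 40.7 and 34.1 CPM in wild type, 39.1 and 35.8 in heterozygotes and 35.2 and 35.4 in homozygotes. Its log2 difference from wild type was -0.08 (SE 0.15, adjusted p = 0.767), and homozygotes lay within the wild-type range.

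Brwd1, which encodes a bromodomain and WD-repeat reader of acetylated chromatin, had the largest difference between homozygotes and heterozygotes. It stood at 33.1 and 54.9 CPM in wild type, 68.2 and 57.6 in heterozygotes and 38.0 and 44.9 in homozygotes. Heterozygotes were above all 4 other libraries, and the homozygous values fell inside the wild-type range. The log2 difference of homozygotes from heterozygotes was -0.60 (SE 0.26, adjusted p = 0.315), that of heterozygotes from wild type 0.51 (SE 0.26, adjusted p = 0.519) and that of homozygotes from wild type -0.09 (SE 0.26, adjusted p = 0.862). Without wild-type library 1 the last became -0.41 (adjusted p = 0.00779) and without library 2 it became 0.33 (adjusted p = 0.0362). With only the heterozygous and homozygous libraries in the fit, Brwd1 was called lower in homozygotes (-0.61, adjusted p = 0.000102).

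**Figure D2:**
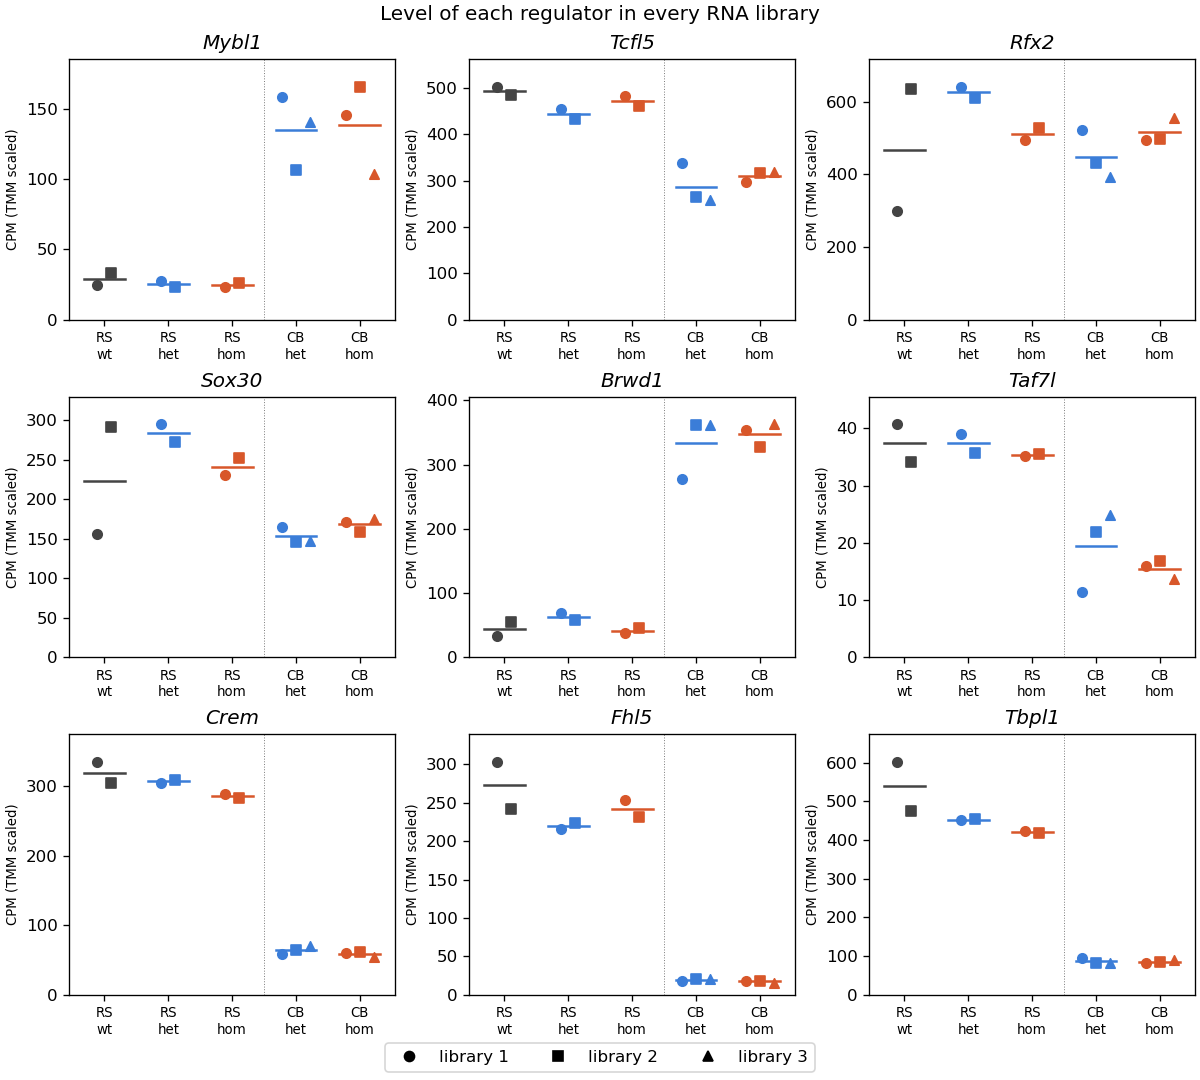
CPM of each regulator in every RNA library, with points for libraries and bars for group means (RS, round spermatids; wt, het and hom for wild type, heterozygous and homozygous). Wild-type library 1 lies apart from library 2 for Rfx2 and Sox30, and the CB groups overlap for all 9 genes.

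Counted over the set, edgeR's quasi-likelihood test with Benjamini-Hochberg adjustment over all genes called 0 of 9 regulators between homozygous and wild-type round spermatids, where it called 2.86% of the 17809 genes tested. It called 0 of 9 between heterozygotes and wild type (0% of all genes) and 0 of 9 between homozygotes and heterozygotes (1.73%). DESeq2 also called 0 of 9 in each comparison, where it called 7.23%, 0.0281% and 4.47% of all genes. At an unadjusted p under 0.05 there was 1 member in the first comparison, Tbpl1, and 0 in the other 2, against 22.7%, 7.28% and 16.7% of all genes. All 9 passed the filter on low counts. Their median log2 change was -0.09 for homozygotes against wild type, -0.06 for heterozygotes against wild type and -0.10 for homozygotes against heterozygotes, beside medians over all genes of -0.0006, -0.0072 and -0.0007. These comparisons share libraries, so their values are not independent of each other. The groups did not overlap for 3 of 9 members in the first comparison, 4 in the second and 8 in the third, against 51.7%, 44.6% and 64.6% of all genes.

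Summed markers of other cell types also differed between homozygous and wild-type spermatids without overlap. In homozygotes they were higher for 8 immune genes (31.6 and 32.4 CPM against 14.1 and 15.2), 6 peritubular and vascular genes (32.1 and 34.0 against 16.4 and 16.5) and 6 Leydig genes (15.1 and 16.6 against 5.26 and 8.07), and lower for 8 Sertoli genes (20.6 and 20.8 against 38.0 and 43.3). Heterozygotes lay between for each of these lists: immune (22.8 and 24.1), peritubular and vascular (20.5 and 22.9), Leydig (8.25 and 9.20) and Sertoli genes (36.35 and 36.7). The 8 spermatogonial genes were also higher in homozygotes (67.1 and 74.5 against 60.65 and 65.0 in wild type). Heterozygotes (72.9 and 73.0) lay within the homozygous range there. At most 1 gene of a list was at 0 in any library. The part of these cells in the regulators' values was not tested.

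The calls depended on the estimate of spread and on both wild-type libraries, wild-type library 2 as well as library 1. Without it, 5 members were called lower in homozygotes than in wild type: Mybl1 (-0.44), Rfx2, Sox30, Tbpl1 and Brwd1. In that fit 26.4% of all genes were called. Without wild-type library 2 it was 6 members, Rfx2, Sox30 and Brwd1 higher and Crem (-0.22), Fhl5 (-0.31) and Tbpl1 (-0.51) lower, and 45.1% of all genes were called. For heterozygotes against wild type, 6 members were called without library 2 (42% of all genes) and 0 without library 1 (0.863%). The fit of heterozygous and homozygous libraries alone called 4 members, Rfx2, Sox30 and Brwd1 lower and Fhl5 higher (0.14, adjusted p = 0.0481), and 32.3% of all genes. The same 4 were called without wild-type library 1, beside 30.1% of all genes. Leaving out wild-type library 2 instead gave much the same log2 changes of homozygotes from heterozygotes. These were -0.29 for Rfx2, -0.23 for Sox30, -0.61 for Brwd1 and 0.14 for Fhl5. With the trend of log2 change on gene length removed, 1 member was called, beside 14% of all genes. It was Mybl1, lower in homozygotes than in wild type (-0.48, adjusted p = 0.0415).

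**Figure D3:**
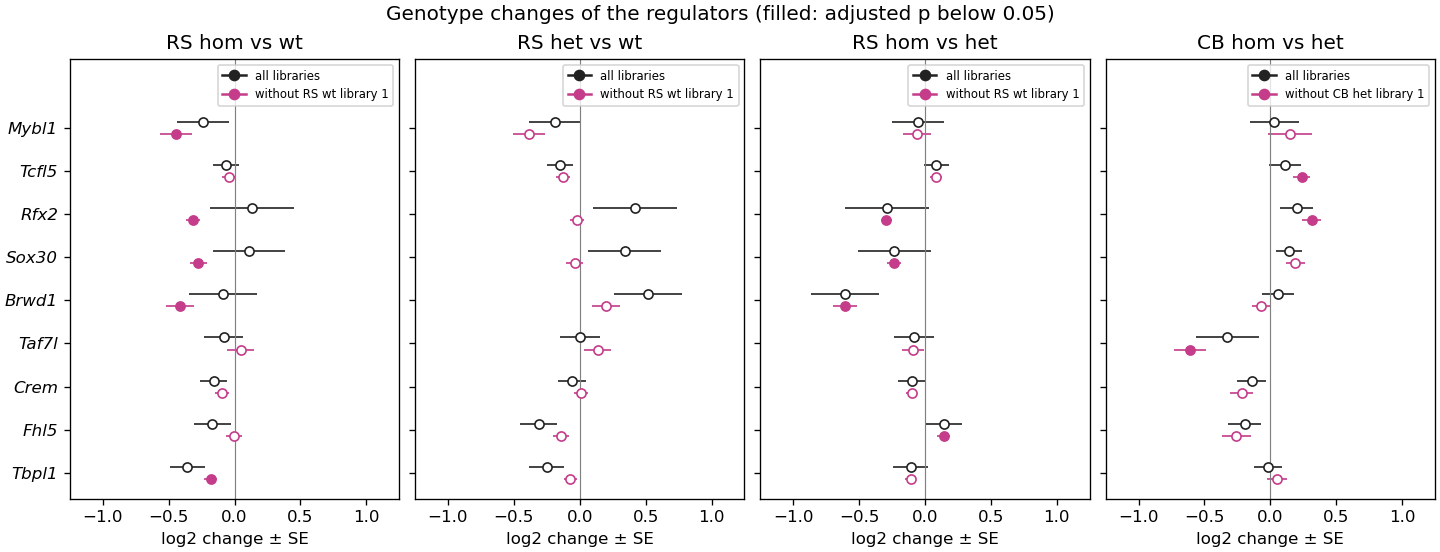
Log2 change ± SE of each regulator in 4 comparisons, with all libraries (black) and without the library that stood apart (pink); filled points have an adjusted p under 0.05. No point is filled with all libraries, and the filled points for Rfx2 and Sox30 against wild type lie on the other side of 0 from the values with all libraries.

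CB RNA showed no member whose homozygous libraries were separated from the heterozygous ones. Mybl1 stood at 159, 107 and 141 CPM in heterozygotes and 146, 166 and 104 in homozygotes, a log2 difference of 0.03 (SE 0.18, adjusted p = 0.962). Tcfl5 stood at 339, 264 and 259 CPM in heterozygotes and 296, 316 and 319 in homozygotes. Heterozygous library 1 was the highest of all 6, and the other 2 heterozygous libraries were below every homozygous one. Rfx2 stood at 522, 431 and 393 CPM in heterozygotes and 496, 497 and 556 in homozygotes, with heterozygous library 1 among the homozygous values and the other 2 below them. The log2 differences were 0.11 for Tcfl5 (SE 0.12, adjusted p = 0.745) and 0.20 for Rfx2 (SE 0.13, adjusted p = 0.518). Without heterozygous library 1 they were 0.24 (adjusted p = 0.038) and 0.31 (adjusted p = 0.0216). Sox30 stood at 165, 146 and 148 CPM in heterozygotes and 172, 159 and 175 in homozygotes, overlapping through heterozygous library 1 (0.14, SE 0.10, adjusted p = 0.58).

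Crem, Fhl5, Tbpl1, Taf7l and Tcfl5 had lower CPM in every CB library than in any round spermatid library, and Brwd1 and Mybl1 higher CPM. This is untested, since the kinds of library differ. Crem stood at 58.9, 64.3 and 70.9 CPM in heterozygotes and 60.3, 61.8 and 53.9 in homozygotes, a log2 difference of -0.14 (SE 0.11, adjusted p = 0.631). Fhl5 stood at 18.3, 19.97 and 21.2 CPM in heterozygotes and 17.7, 18.4 and 15.9 in homozygotes (-0.19, SE 0.12, adjusted p = 0.525). Both genes had their lowest value in homozygous library 3 and overlapped between genotypes. Tbpl1 was at 86.7 ± 8.17 CPM in heterozygotes and 85.7 ± 3.85 in homozygotes (SD over 3 libraries), a difference of -0.02 (SE 0.10, adjusted p = 0.961). Brwd1 was at 334 ± 48.8 and 348 ± 18.5 CPM (0.06, SE 0.12, adjusted p = 0.881). Taf7l varied most, with 11.5, 21.9 and 24.9 CPM in heterozygotes and 16.0, 16.9 and 13.6 in homozygotes. Heterozygous library 1 was again the exception, the lowest of all 6, while the other 2 were the highest. The log2 difference of Taf7l was -0.33 (SE 0.24, adjusted p = 0.6), and without that library -0.61 (adjusted p = 0.00899).

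In CB RNA edgeR called 0 of 9 members, beside 1.72% of 19335 genes; 0 had an unadjusted p under 0.05 (14.5% of all genes), DESeq2 called 0 (3.09%), and 0 of 9 had groups without overlap (21.2% of all genes). The median of the members was 0.03, and that of all genes -0.0048. Without heterozygous library 1 the test called 3 members, Tcfl5 and Rfx2 higher and Taf7l lower, beside 11% of all genes. That library was also the lowest of the 6 in the summed markers of 5 other cell types. Its sums against those of the other 2 heterozygous libraries were 66.8 CPM against 123 and 113 for 8 Sertoli genes, 51.9 against 107 and 105 for 8 spermatogonial genes and 70.9 against 125 and 124 for 6 Leydig genes. They were 5.80 against 11.3 and 9.81 for 8 immune genes and 11.8 against 14.3 and 12.2 for 6 peritubular and vascular genes. All of these markers were above 0 in every CB library. The homozygous sums were 78.5 to 84.1 (Sertoli), 89.7 to 91.4 (spermatogonia), 138 to 149 (Leydig), 11.95 to 14.4 (immune) and 14.3 to 15.6 CPM (peritubular and vascular). Their part in these values was not tested.

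Whether homozygotes differed from heterozygotes by another amount in CB RNA than in round spermatids was tested with a single contrast over the 12 libraries. Brwd1 had the largest value, 0.72 on the log2 scale (SE 0.28), its difference between homozygotes and heterozygotes being negative in spermatids and near 0 in CB RNA. Its unadjusted p was 0.0228 and its adjusted p 0.489. Rfx2 followed with 0.55 (SE 0.34, adjusted p = 0.674) and Sox30 with 0.43 (SE 0.29, adjusted p = 0.69), and Fhl5 had the lowest value, -0.28 (SE 0.20, adjusted p = 0.706). EdgeR called 0 of 9 members, 1 having an unadjusted p under 0.05, and DESeq2 called 0 beside 0.654% of all genes. Of all 22002 genes 0.209% were called, and 8.9% had an unadjusted p under 0.05. Kit, input and labelled cells differ between the kinds of library, so an interaction of genotype with any of these cannot be told apart.

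Levels in CB RNA and round spermatids are set side by side without a test, since kit, RNA input and cells differ. Mybl1 and Brwd1 were higher in CB RNA, by 2.41 each on the log2 CPM scale in heterozygotes and by 2.49 and 3.07 in homozygotes. Crem (-2.25 and -2.29), Tbpl1 (-2.38 and -2.29) and Fhl5 (-3.47 and -3.81) were lower, and of the genes compared only 1.2% in heterozygotes and 1.1% in homozygotes had a ratio below that of Fhl5. Tcfl5 (-0.63 and -0.60), Sox30 (-0.89 and -0.52), Taf7l (-0.95 and -1.19) and Rfx2 (-0.48 and 0.01) lay nearer to the median of all genes, which was -0.04 in heterozygotes and -0.05 in homozygotes. The ratio moved with gene length over all genes. Its median in heterozygotes was -1.44 for genes with an effective length under 1000 bases and 1.20 for those over 3000. Crem (787 bases), Fhl5 (818) and Tbpl1 (913) fall in the former class, and Brwd1 (3117) and Mybl1 (3603) in the latter. Each of these 5 lay beyond its class median in the direction it took. On the deposited TPM scale, the log2 ratio in heterozygotes was 3.31 for Mybl1, 2.93 for Brwd1, -1.65 for Crem, -1.99 for Tbpl1 and -2.90 for Fhl5. The sign of the ratio turned on that scale for Tcfl5 in both genotypes, for Rfx2 in heterozygotes and for Sox30 in homozygotes.

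Crem is transcribed from several promoters into activator and repressor forms, and the tables list 39 Crem transcripts. Of these, 25 had a count above 0 in at least 1 round spermatid library and 23 in at least 1 CB library. In round spermatids 5 transcripts each held at least 5% of the Crem count and together 92.3% of it. ENSMUST00000144496 led with 51.3% and 45.1% of the Crem count in the wild-type libraries, 43.3% and 42.0% in heterozygotes and 43.3% and 42.7% in homozygotes. It was the leading transcript in every round spermatid library, with its highest share in wild-type library 1. By count, ENSMUST00000150235 followed with 13.6% and 19.2% in wild type, 22.1% and 21.98% in heterozygotes and 20.01% and 20.2% in homozygotes. On the TPM scale its means were 5.22%, 7.68% and 6.84% in the same order. Those of ENSMUST00000127601 were higher, at 9.96%, 13.55% and 12.64%. The lowest count share of ENSMUST00000150235 was in wild-type library 1, as was that of ENSMUST00000154715 (5.05% against 9.68% to 12.3% in the other 5) and of ENSMUST00000127601 (7.62% against 10.2% to 12.2%). ENSMUST00000126578 stood at 6.68% and 6.24% in wild type, 5.16% and 6.71% in heterozygotes and 10.4% and 8.53% in homozygotes, where both homozygous libraries were the highest.

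In CB RNA the order of the leading pair was exchanged on the count scale. ENSMUST00000150235 held 41.2%, 28.2% and 32.1% of the Crem count in heterozygotes and 28.2%, 38.2% and 30.2% in homozygotes. ENSMUST00000144496 held 16.2%, 30.3% and 23.9% in heterozygotes and 26.0%, 19.4% and 31.1% in homozygotes. The genotypes overlapped for both transcripts, and the second was ahead of the first only in heterozygous library 2 and homozygous library 3. ENSMUST00000154715 (7.12% to 12.1%), ENSMUST00000130047 (2.35% to 11.1%) and ENSMUST00000149266 (1.59% to 11.8%) were the other transcripts with at least 5% of the summed count, and the 5 together held 79.6%. These shares are of estimated counts, which give a longer transcript more weight; on the TPM scale ENSMUST00000150235 held 12.9 ± 4.01% of Crem in heterozygous CB libraries and ENSMUST00000144496 27.8 ± 5.46% (SD, n = 3).

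With all libraries, no Crem transcript passed the test between genotypes. EdgeR called 0 of 14 tested transcripts in each round spermatid comparison and 0 of 13 in CB RNA, where it called 2, 0 and 2 of 36768 transcripts of all genes in round spermatids (0.00544%, 0% and 0.00544%) and 3 of 41748 in CB RNA (0.00719%). DESeq2 called 0 Crem transcripts in every comparison and 4.51%, 0.642%, 3% and 1.84% of all transcripts. At an unadjusted p under 0.05 there was 1 transcript, ENSMUST00000126578, higher in homozygous than heterozygous spermatids (log2 0.59, SE 0.23, adjusted p = 0.525). ENSMUST00000144496 differed by -0.30 between homozygotes and wild type (SE 0.14, adjusted p = 0.455) and ENSMUST00000150235 by 0.39 between heterozygotes and wild type (SE 0.17, adjusted p = 0.74) and by -0.19 between the CB groups (SE 0.20, adjusted p = 0.888). Without wild-type library 2, 5 Crem transcripts were called in homozygotes and 5 in heterozygotes against the remaining wild-type library, beside 16.4% and 14.5% of all transcripts. Among them, ENSMUST00000144496 was lower (-0.42 in homozygotes, -0.35 in heterozygotes) and ENSMUST00000150235 (0.40, 0.62) and ENSMUST00000154715 (0.95, 1.07) were higher. The others, ENSMUST00000140332 and ENSMUST00000147138, named after their values were seen, were listed at 0 in every spermatid library but wild-type library 1. Transcript counts of a gene share reads, and the error of assigning them is not in the test. Which of these transcripts encode activator or repressor forms was not analysed here.

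**Figure D4:**
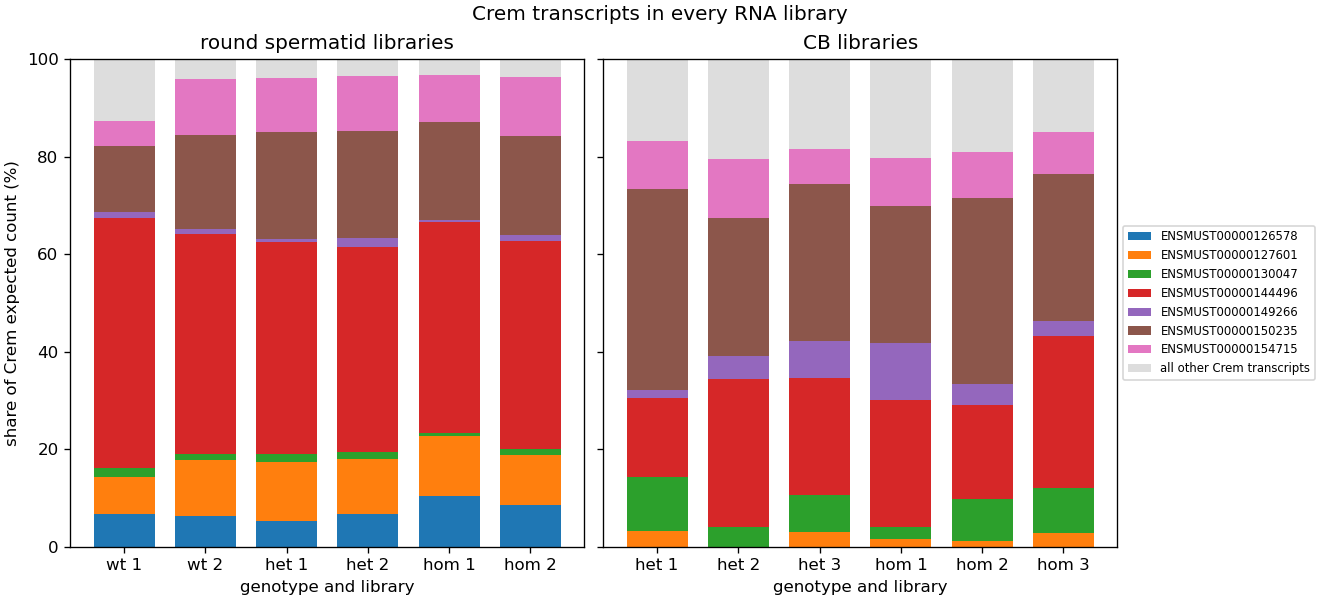
Share of the Crem expected count held by each transcript with at least 5% of it in a kind of library, as stacked bars for each of the 12 RNA libraries, with all other transcripts in grey. ENSMUST00000144496 leads in all 6 round spermatid libraries, and ENSMUST00000150235 in 4 of the 6 CB libraries.

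The regulators were then compared with each other across the 12 libraries, as log2 CPM centred within round spermatid and within CB libraries. These correlations describe 12 points that share their library's depth and preparation and include the 2 libraries that stood apart, and they carry no test. Rfx2 and Sox30 were the most alike of the 36 pairs, with a Pearson r of 0.979 (0.997 within round spermatids and 0.899 within CB RNA). Rfx2 and Fhl5 were the most opposed, with -0.903 (-0.933 and -0.94). Their effective lengths in round spermatids were 2977 and 818 bases. Wild-type library 1, with its large share of short genes, had the lowest Rfx2 and the highest Fhl5 of the spermatid libraries. The part of gene length was not tested. Sox30 and Fhl5 had -0.867, Crem and Taf7l 0.791, Crem and Fhl5 0.757, and Tcfl5 and Taf7l -0.811. The last was 0.234 within round spermatids and -0.956 within CB RNA, so it came from the CB libraries. Mybl1 followed no other member closely, its highest value being 0.313 with Tcfl5. Among 13761 genes with a mean of at least 1 CPM in both kinds of library, the most like gene was Cluh for Rfx2 (0.995), Slx4 for Sox30 (0.991), Brwd1 had Synj1 (0.976), Tbpl1 Cenpv (0.97), Taf7l Blmh (0.969), Tcfl5 Gm9887 (0.953), Crem Ptcd3 (0.952), Fhl5 Rab28 (0.948) and Mybl1 Ppp4r3b (0.927).

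With all libraries in the edgeR fits, relatives and partners of the 9 genes gave no call. The medians of these lists in homozygous against wild-type spermatids were -0.04 for relatives, 0.10 for general factors and 0.01 for other regulators. Of 20 family relatives, such as Rfx1, Sox5, Creb1 and Tbp, 18 passed the filter and 0 were called in any of the 5 contrasts. The largest values were those of Brwd3, the paralog of Brwd1, with 7.43 ± 3.11 CPM in wild-type spermatids (SD, n = 2 libraries) and a log2 change in homozygotes of 1.00 (adjusted p = 0.126), and of Fhl2 (-0.82, adjusted p = 0.414). In CB RNA they were again Fhl2 (0.86, adjusted p = 0.247) and Brwd3 (0.42, adjusted p = 0.151). Of 12 general factors and partners, 0 were called. Crebbp, the gene of a histone acetyltransferase that binds CREB-family factors, differed by 0.65 in spermatids (adjusted p = 0.198) and 0.39 in CB RNA (adjusted p = 0.0869). The other large values were those of the TFIIB gene Gtf2b in spermatids (-0.62, adjusted p = 0.11) and the TFIIA subunit gene Gtf2a2 in CB RNA (-0.29, adjusted p = 0.481). Of 17 other spermatogenic regulators, 0 were called, with Hsf2 (-0.41, adjusted p = 0.134) and Sohlh2 (0.27, adjusted p = 0.658) the largest in homozygous against wild-type spermatids and Sohlh1 (-0.56, adjusted p = 0.527) and Ctcfl (-0.52, adjusted p = 0.336) in CB RNA.

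Genes known to depend on the regulators were counted as well. Of 8 genes known to depend on Crem, Fhl5 or Tbpl1, 2 fell in homozygous CB RNA and 0 rose, beside 0.559% of all genes called lower. Prm1, encoding protamine 1 of sperm chromatin, stood at 214 ± 87.2 CPM in heterozygotes and 88.9 ± 2.17 in homozygotes (log2 -1.27, SE 0.23, adjusted p = 0.0216), and Odf1, encoding a protein of the sperm tail's outer dense fibres, at 420.1 ± 97.3 and 236 ± 8.08 CPM (-0.83, SE 0.16, adjusted p = 0.0297). Neither call held when any homozygous CB library was left out (adjusted p of 0.12 to 0.132 for Prm1 and 0.142 to 0.171 for Odf1), and that of Odf1 was also lost without heterozygous library 2 or 3 (0.0974 and 0.116). These fits called 0.256%, 0.282% and 0.376% of all genes without homozygous library 1, 2 and 3, and 0.65% and 0.53% without heterozygous library 2 and 3. The list's median was -0.62, that of all genes -0.0048. The 8 elongating spermatid markers, a list that shares 6 of these genes, summed to 3010 to 3185 CPM in heterozygous and 2074 to 2166 CPM in homozygous CB libraries. Of these markers 3 were called lower. The 8 round spermatid markers, which share no gene with the list, summed to 305 to 332 CPM in heterozygotes and 254 to 263 CPM in homozygotes. Their median was -0.32, and 1 was called lower. The 14 pachytene markers overlapped between the genotypes, with 1 called lower and a median of 0.04. The part of these cell types was not tested. In round spermatids 0 of the 8 were called. Prm1 differed by -1.61 between homozygotes and wild type (adjusted p = 0.21) and Tnp1 by -1.27 (adjusted p = 0.297), and without wild-type library 1 these were -0.06 and 0.32.

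Of 7 genes known to depend on Mybl1, 1 rose in homozygous against wild-type spermatids, where 2.39% of all genes were called higher. This was Tdrd1, encoding a Tudor protein of the piRNA pathway, at 19.1 ± 3.74 CPM in wild type and 42.4 ± 3.38 in homozygotes (log2 1.15, SE 0.18, adjusted p = 0.0337). In this comparison, 2 of 8 immune, 2 of 5 peritubular and vascular and 1 of 4 Leydig markers tested were called higher as well. Of 5 Sertoli markers tested, 2 were called lower, beside 84 of all 17809 genes tested. The sums of these markers are given above, and their part in the Tdrd1 value was not tested. Tdrd1 was not called with either heterozygous or either homozygous library left out (adjusted p of 0.144 to 0.342), nor in a fit of the wild-type and homozygous libraries alone (0.137). These fits called few genes in all: 0.0961% and 0.0796% without a heterozygous library, 0% without a homozygous library and 0.0867% in the last. In CB RNA 0 of the 7 were called, the largest values being those of Tdrd1 (0.46, adjusted p = 0.358) and Piwil1 (0.21, adjusted p = 0.815). Of 9 cilium genes known as RFX targets, 0 were called in any contrast. Ift122 (0.34, adjusted p = 0.566) and Ift88 (0.30, adjusted p = 0.348) had the largest values in homozygous against wild-type spermatids, and Rsph1 (0.38, adjusted p = 0.206) and Ift88 (0.27, adjusted p = 0.218) in CB RNA. In homozygous against wild-type spermatids, Ift122 had -0.11 and Ift88 0.09 without wild-type library 1. Without library 2 they had 1.00 and 0.55.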

How the data were processed

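RNA of 6 round spermatid and 6 CB libraries was used. Per the labels' protocols, the input was 1 ug of total RNA and the kit NEBNext Ultra for round spermatids, and 25 ng and a Hieff kit that keeps strand for CB RNA, where neither polyadenylated RNA was selected nor ribosomal RNA removed. Per the file headers, the authors deposited expected counts, TPM, FPKM and effective lengths per gene and transcript, and the percent of a gene held by each transcript. The submitters' processing notes name Trim Galore and mm10; the sources used here name no quantifier or aligner and do not say whether strand was used, so overlapping and antisense genes may share counts. The deposited FPKM and isoform percent values were not used further; the deposited TPM served to order genes, for the ratio of CB to round spermatid levels and for Crem transcript shares set beside those of counts.

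The deposited expected counts were rounded and tested with edgeR 4.0.16 in R 4.3.3 (quasi-likelihood test after filterByExpr by group, with TMM factors, Benjamini-Hochberg adjustment and a threshold of 0.05). The 6 round spermatid libraries shared one fit, the 6 CB libraries another, and all 12 were fitted together for the interaction; transcripts were fitted likewise. Every adjusted p comes from edgeR. DESeq2 1.42.0 was an alternative, and the steps were tested on simulated counts. Group values are mean ± SD of CPM. Counts were compared between libraries of a group to look for copies, and none matched within counting noise (lowest chi-square over degrees of freedom 2.55). Members and lists were chosen with earlier results of these data known. Of a list, genes that passed the test are named, and where none did in homozygous against wild-type spermatids or in CB RNA, the 2 of largest change; of Crem transcripts, those with at least 5% of the summed count. For each member the single most correlated gene is named. Promoter sequences are from RefSeq (GRCm38.p6), matched by symbol. Meiosin, 1 of 18 listed other regulators, and small RNA libraries were not analysed here.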

Additional observations from a re-analysis of the deposited data

How the results depend on the processing

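Of the counts of called members and Crem transcripts under the alternatives, 88 were as in the main analysis and 10 moved. With the trend of log2 change on gene length removed, 1 member (Mybl1) was called in homozygous against wild-type spermatids, where 14% of all genes were, and with only the compared libraries 4 were called between homozygotes and heterozygotes. Leaving out each library in turn gave 0 to 6 members for homozygotes and for heterozygotes against wild type, 0 to 4 for homozygotes against heterozygotes and 0 to 3 in CB RNA, and 0 to 5 Crem transcripts in either comparison with wild type, the 5 without wild-type library 2, where 16.4% and 14.5% of all transcripts were called. DESeq2, RLE factors and no low-count filter called 0 members in all 5 contrasts. EdgeR's count over all genes moved more: 510 genes became 1287 with DESeq2, 1692 without the filter and 15 with only the compared libraries.

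Replicate numbers recur across groups. Deviations of same-numbered libraries from their group means had correlations of -0.206, 0.164 and -0.068 in round spermatids and -0.251 to -0.035 in CB RNA. With 2 libraries in a round spermatid group, their deviations mirror each other. These values therefore cannot decide whether a number marks a shared preparation. With the replicate block 0 members were called in every contrast, and the counts over all genes fell to 182, 0, 12, 163 and 2 from 510, 0, 308, 332 and 46; the log2 change of Tdrd1 missed the threshold (adjusted p = 0.0539). 

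The following signs turned. With the length trend removed, the log2 change was 0.15 for Crem (heterozygous against wild type), 0.00085 for Mybl1 (homozygous against heterozygous spermatids), -0.00087 for Mybl1 and 0.020 for Tbpl1 (CB RNA) and -0.011 for Mybl1 (interaction). RLE factors gave -3.9e-05 for Taf7l (heterozygous against wild type). For Crem in the interaction, RLE factors and DESeq2 each gave -0.048. On the TPM scale the CB to spermatid ratio was 0.039 and 0.22 for Tcfl5 (heterozygous, homozygous), 0.22 for Rfx2 (heterozygous) and 0.31 for Sox30 (homozygous). The cause was not tested.

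Ranges over left-out libraries that crossed 0 were, for homozygotes against wild type, -0.44 to 0.0018 (Mybl1), -0.31 to 0.78 (Rfx2), -0.27 to 0.64 (Sox30), -0.41 to 0.33 (Brwd1), -0.19 to 0.047 (Taf7l), -2.00 to 0.32 (Tnp1), -0.026 to 0.61 (Sohlh2) and -0.11 to 1.00 (Ift122). For heterozygotes against wild type they were -0.38 to 0.060 (Mybl1), -0.020 to 1.07 (Rfx2), -0.039 to 0.88 (Sox30), -0.11 to 0.0096 (Crem) and -0.11 to 0.14 (Taf7l), and for homozygous against heterozygous spermatids -0.17 to 0.074 (Mybl1). In CB RNA they were -0.12 to 0.20 (Mybl1), -0.066 to 0.052 (Tbpl1), -0.069 to 0.12 (Brwd1) and -0.15 to 0.43 (Piwil1), and in the interaction -0.093 to 0.32 (Mybl1), -0.051 to 0.14 (Tcfl5), -0.14 to 0.078 (Crem) and -0.54 to 0.024 (Taf7l).

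Groups hold 2 or 3 libraries, and the smallest count of a member in any of them was 160.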
